A study of Mus musculus with 2 samples.

Results

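Hepatic stellate cells (HSCs) differ along the liver lobule, and 8 genes that mark this difference were followed here through single HSCs of fibrotic mouse liver. The genes were chosen by name, with earlier results of these data known. Ngfr, Igfbp3 and Il34 mark HSCs near the portal tract, Adamtsl2, Spon2 and Podn mark HSCs near the central vein, and Reln and Pth1r mark HSCs in general. They are 8 of the 31054 features in the count matrices, and all 8 were matched by identifier to the mouse annotation. HSCs were taken as barcodes in which Lrat, Ecm1, Hgf and Dcn together made up at least 15 of every 10000 UMIs (unique molecular identifiers, which count captured RNA molecules), with at most 5% mitochondrial UMIs and at least 2000 genes detected. This gave 8606 of 11149 barcodes in the p16-LRTD library and 7154 of 8806 in the p16-Alb-LRTD library.

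The cells came from male mice on a C57BL/6 background that received carbon tetrachloride (CCl4) for 4 weeks together with tamoxifen and diphtheria toxin in both groups. The p16-Alb-LRTD mice carried, each as a heterozygous allele, p16-CreERT2, Alb-DreERT2 plus R26-CAG-LSL-RSR-tdTomato-2A-DTR, so that hepatocytes with high p16 expression gained the toxin receptor and were eliminated. The p16-LRTD controls lacked Alb-DreERT2, the recombinase whose albumin promoter restricts the system to hepatocytes. There was 1 library per genotype. The number and age of the mice behind each library are not given in the sources used here, so differences between genotype, mouse and library preparation cannot be told apart. The preparations were made for HSCs and not for hepatocytes, in which the elimination acts, so Cdkn2a (p16) in the HSCs (8.06 and 5.51 CPM, summed counts scaled to a common total of UMIs) does not check the genotype labels. The tdTomato feature of the construct was low in the HSCs of both libraries, at 3.096 CPM (526 UMIs) in p16-LRTD against 6.53 (956 UMIs) in p16-Alb-LRTD.

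Blood enters the liver lobule at the portal tract, flows along the sinusoids and leaves through the central vein, and hepatocytes along this path do different work. CCl4 is turned into a toxic radical by Cyp2e1, which hepatocytes around the central vein express, so its damage is centred there. HSCs lie between hepatocytes and sinusoidal endothelium, store vitamin A and, when activated by injury, make the fibrillar collagens of scar tissue. The cells were dissociated before sequencing, so no position in the lobule was measured, and portal and central are used below as names of the gene groups.

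The sequence before the start site is shown for Ngfr and Adamtsl2, the portal and the central gene on which the cell classes below were built. It comes from RefSeq promoters (GRCm38.p6), which matched 6 members at 9 start sites, and covers the 250 bases before the start, read 5′ to 3′ on the strand of the gene. The Ngfr sequence lies at chr11:95587699-95587948 on the minus strand and that of Adamtsl2 at chr2:27079129-27079378 on the plus strand. The RefSeq start of Ngfr lies slightly inside the GENCODE limits of the gene given below. Capitals mark the letters of a TATA box (TATAAA) or a GC box (GGGCGG) on either strand.
Ngfr: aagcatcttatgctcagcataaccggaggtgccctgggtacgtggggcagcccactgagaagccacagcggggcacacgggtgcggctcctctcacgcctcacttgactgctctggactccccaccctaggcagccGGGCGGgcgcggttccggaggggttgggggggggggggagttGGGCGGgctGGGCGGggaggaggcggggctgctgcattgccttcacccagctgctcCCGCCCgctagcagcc
Adamtsl2: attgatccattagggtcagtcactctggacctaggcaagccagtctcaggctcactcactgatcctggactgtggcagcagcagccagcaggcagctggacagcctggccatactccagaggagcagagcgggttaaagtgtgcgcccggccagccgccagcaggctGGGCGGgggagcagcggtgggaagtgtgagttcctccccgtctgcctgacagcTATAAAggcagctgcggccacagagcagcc
The Ngfr sequence held 4 GC boxes, 3 forward and 1 reverse, no TATA box and 70.4% G or C. Adamtsl2 had 1 TATA box, 30 to 25 bases before the start, 1 GC box and 62.8% G or C. Among all 32851 promoters of this length, 32.7% held a GC box and 12.4% a TATA box, and the median share of G or C was 52.4%. Neither sequence held the letters TCAAAG, the core bound by TCF factors of the Wnt pathway, which 13.8% of all promoters hold on either strand, and nor did the promoters of the other 4 members matched. Igfbp3 had none of the GC or TATA letters at 73.2% G or C, and Reln had 6 GC boxes at 80% (1 start site each). Il34 and Spon2 had no entry.

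Before the members are compared, the libraries have to be set side by side. The HSCs held 169888661 UMIs in p16-LRTD against 146406371 in p16-Alb-LRTD, with medians of 17599 and 18565 UMIs per cell. The 8 stellate markers, among them the 4 genes that chose these cells, summed to 27616 and 31390 CPM. Other measures moved between the libraries alongside the members, and their part in the differences below was not tested. The 9 fibroblast and mesothelial markers summed to 151 and 100.4 CPM, led by Dpt (62.8 and 28.6) and Wt1 (57.2 and 50.1), the 5 hepatocyte markers to 171 and 42.1 CPM, the 4 cell division genes to 129 and 31.7 CPM, and 12 genes of the dissociation stress response to 5616 and 8790 CPM. The 6 endothelial markers summed to 345 and 451 CPM, the 6 macrophage markers to 131 in each library, the 6 lymphocyte markers to 0.524 and 1.22 and the 4 smooth muscle markers, which include the HSC gene Des, to 342 and 279, and none of these genes was at 0. Between the libraries 95 cell barcodes were shared, 14 of them HSCs in both. At the limit of the HSC rule few cells were at stake, with 16 and 10 cells at 15 to 20 per 10000 UMIs and 30 and 37 cells just outside at 10 to 15, and their members summed to 168 and 15 UMIs inside and 118 and 92 outside.

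All members were expressed mainly in HSCs. Across 439 and 279 endothelial barcodes and 321 and 211 macrophage barcodes, the levels of 6 members lay between 0.14 and 4.34 CPM, against 31.0 CPM or more in the HSCs of either library. Igfbp3 and Reln, the members with the highest counts, reached 23.2 to 30.004 and 22.2 to 30.6 CPM in these other classes. To compare the share of cells with a UMI, every cell was thinned at random to 5000 UMIs, which left out 20 and 9 shallower HSCs. In endothelial barcodes (median 12257 and 12309 UMIs before thinning) and macrophage barcodes (20754 and 26114) this share was 2.87% or less, other than 10.8% to 14.2% for Igfbp3 and 11.2% to 13.8% for Reln, and these are the background levels for the shares given below. Intervals throughout are 95% intervals for counting error only, because cells of a library are not replicates, and no test between the genotypes was possible. Counts come from the 3′ end of the transcripts and are not scaled by length, so levels are compared between libraries and cells and not between genes.

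**Figure D1:**
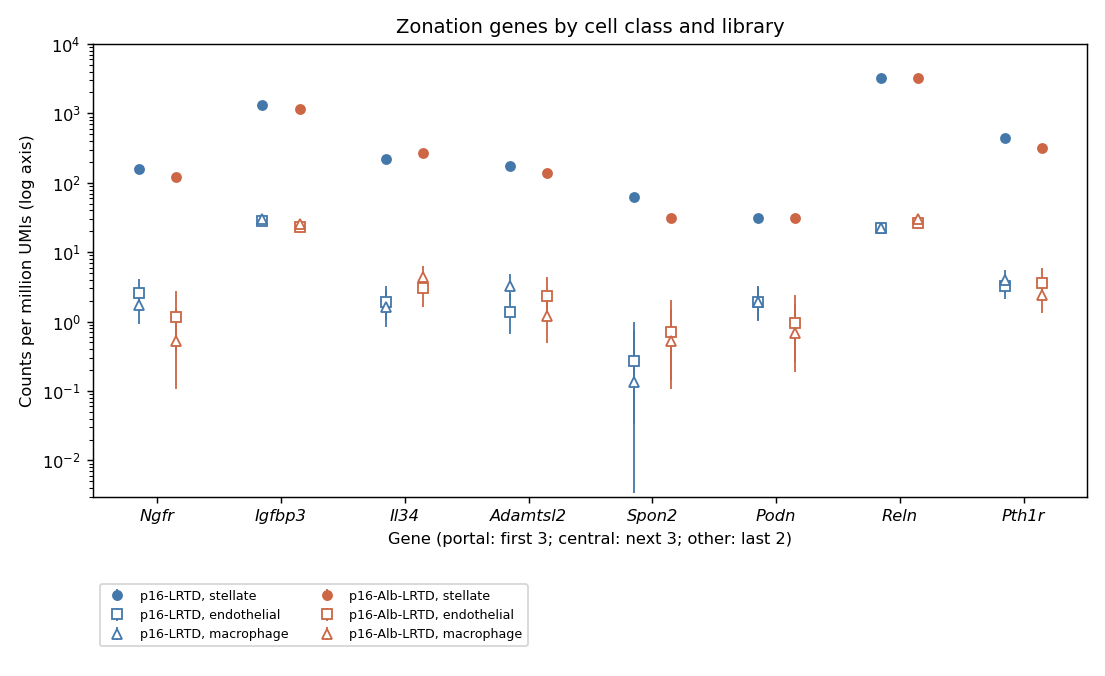
CPM (log axis) of the 8 genes in stellate, endothelial and macrophage barcodes of each library. Points are summed counts and bars exact 95% Poisson intervals. Every gene is at least 10-fold higher in stellate cells, and the fall of Spon2 from 63.0 to 31.0 CPM is the largest fold between the libraries in stellate cells.

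Of the portal genes, Ngfr was lower in p16-Alb-LRTD. Ngfr (chromosome 11, 95568818 to 95587735, GRCm38) encodes the p75 neurotrophin receptor. It stood at 160.3 CPM (158 to 162) in p16-LRTD against 120.7 (119 to 123) in p16-Alb-LRTD. The ratio was 0.753 (0.739 to 0.768), or -0.41 on the log2 scale. At 5000 UMIs, 49.3% and 38.0% of HSCs had an Ngfr UMI (76.7% and 67.0% unthinned), so that level and share went the same way. The richest 10% of cells held 31.9% and 38.0% of all Ngfr UMIs. The study that reported these libraries lists Ngfr among its quiescence markers of HSCs, with Gucy1b1 and Lrat. It reports higher quiescence markers in the activated HSCs of p16-Alb-LRTD, a subset that was not set apart here.

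Igfbp3 (chromosome 11, 7206086 to 7213923) encodes a secreted protein that binds insulin-like growth factors. Its level was 1334 CPM in p16-LRTD against 1166 in p16-Alb-LRTD, a log2 difference of -0.19 and short of the line used here to call a difference, at least 20% lower or 25% higher in p16-Alb-LRTD. It passed that line, at -0.33, when CPM was averaged over cells. Nearly every HSC carried it, with 90.5% and 90.7% of thinned cells (97.6% unthinned in each library), yet the counts were spread widely, and at 5000 UMIs their variance was 5.78 and 4.61 times the mean.

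Il34 (chromosome 8, 110741829 to 110805924) encodes a cytokine that shares the CSF1 receptor with CSF1. It was the portal gene with a higher level in p16-Alb-LRTD, at 272.7 against 218.2 CPM, a log2 difference of 0.32 (interval of the ratio 1.23 to 1.27) that lay just under the line of 25%. It passed that line, at 0.36, under TMM and under median of ratios scaling, which set the libraries to their typical gene and not to their totals. The lowest log2 ratio among the alternatives was 0.15, when CPM was averaged over cells. The share of cells with Il34 was 56.9% and 59.5% (84.9% and 83.7% unthinned). Exons of Gm15894 and Gm15895 overlap Il34 on the other strand, and whether the counting used strand is not given in the sources used here. The 3 portal genes therefore did not share a direction between the libraries.

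Among the central genes, Spon2 differed most. Spon2 (chromosome 5, 33198184 to 33218455) encodes spondin 2, a secreted matrix protein also called mindin. The control library had 63.0 CPM and p16-Alb-LRTD 31.0, a ratio of 0.492 (0.475 to 0.509), or -1.02 on the log2 scale. The share of cells with a UMI was 18.6% and 12.2% (36.6% and 27.4% unthinned). The richest 10% of HSCs contained 60.1% and 66.3% of its UMIs, a share that also rises as a gene has fewer counts.

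Adamtsl2 (chromosome 2, 27079379 to 27108981) encodes a secreted glycoprotein that binds fibrillin microfibrils and has no protease domain. It was counted at 174 CPM in p16-LRTD against 136.2 in p16-Alb-LRTD. The ratio was 0.783 (0.769 to 0.797), or -0.35 on the log2 scale. This difference was close to the line of 20% and fell short of it in 7 of 14 alternatives, with a log2 ratio of -0.27 once barcodes with at least 5 per 10000 UMIs of fibroblast or mesothelial markers were left out. The share of thinned cells with a UMI was 40.3% and 41.4% (63.1% and 71.3% unthinned), which does not follow the level, so no order is read from it. The richest 10% of cells held 43.7% of its UMIs in p16-LRTD and 40.9% in p16-Alb-LRTD.

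Podn (chromosome 4, 108014791 to 108096445) encodes podocan, a small leucine-rich proteoglycan of the extracellular matrix. Podn was measured at 31.5 CPM in each library, with a ratio of 1.001 (0.962 to 1.04), and in 12.8% and 14.3% of thinned cells (33.3% and 36.02% unthinned).

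Reln and Pth1r, which the rule puts in neither zone, differed from each other. Reln (chromosome 5, 21884454 to 22344702) encodes reelin, a secreted glycoprotein best known from neuronal positioning and made in liver by HSCs. It was detected in 98.7% and 99.2% of thinned HSCs (99.1% and 99.6% unthinned), and its level was 3185 and 3283 CPM, a log2 ratio of 0.04. Pth1r (chromosome 9, 110722085 to 110747145), the receptor for parathyroid hormone and parathyroid hormone-related protein, stood at 438 CPM in p16-LRTD against 320.2 in p16-Alb-LRTD. That is a ratio of 0.731 (0.723 to 0.740), a log2 ratio of -0.45, and the share of thinned cells was 79.5% and 72.5% (96.8% and 95.7% unthinned). Exons of Myl3 overlap Pth1r, and Gm10475 overlaps Reln, so reads may be shared there as at Il34.

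In all, 4 of the 8 members (Ngfr, Adamtsl2, Spon2 and Pth1r) were at least 20% lower in p16-Alb-LRTD and 0 were at least 25% higher. Over the 10476 genes with a mean of at least 5 CPM in HSCs, 11.5% were lower by that much and 7.74% higher. The members were chosen with earlier results of these data known, so no excess over these shares is read from their count. The median log2 ratio was -0.27 over the members and -0.05 over all those genes. Ngfr, Spon2 and Pth1r stayed at least 20% lower in all 14 alternatives.

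Within each library, cells with a portal gene and cells with a central gene were then set against each other. At 5000 UMIs, 94.9% of HSCs in p16-LRTD and 95.6% in p16-Alb-LRTD had a UMI of at least 1 portal gene, and 49.7% and 51.6% of at least 1 central gene. The number of cells with both was 0.972 and 0.990 times the number expected from independent detection, a ratio that has little room to fall where nearly every cell has a portal gene. A central gene was found in 48.3% of the cells with a portal gene and 75.5% of the few without one in p16-LRTD, and in 51.1% and 62.7% in p16-Alb-LRTD. The 28 pairs of single members are described by the same ratio of observed to expected cells, with intervals that treat the number of shared cells as a Poisson count and do not hold the number of cells with each gene fixed.

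The ratios of all 9 portal-central pairs were below 1 in each library, with a median ratio of 0.720 in p16-LRTD and 0.809 in p16-Alb-LRTD. Ngfr and Adamtsl2 shared 1163 cells where 1705 were expected in p16-LRTD, a ratio of 0.682 (0.643 to 0.722). In p16-Alb-LRTD they shared 910 cells where 1125 were expected, a ratio of 0.809 (0.757 to 0.863). Seen from Ngfr, 27.5% of HSCs with Ngfr and 52.8% of those without it had Adamtsl2 in p16-LRTD, and 33.5% and 46.2% in p16-Alb-LRTD. The ratios of Ngfr were lower still with Spon2, at 0.582 and 0.611, and with Podn, at 0.608 and 0.632. Without thinning, Ngfr with Adamtsl2 gave 0.906 and 0.929, below 1 but closer to it. Il34 gave intermediate ratios with Adamtsl2 (0.783 and 0.882), Spon2 (0.672 and 0.699) and Podn (0.720 and 0.788), while Igfbp3, which most cells carry, stayed between 0.892 and 0.989. A ratio of a gene found in nearly every cell can hardly leave 1, so shares are given for Igfbp3, whose intervals held 1 with Podn in each library and with Adamtsl2 in p16-Alb-LRTD. Adamtsl2 was found in 38.6% of HSCs with Igfbp3 and 56.7% of those without it in p16-LRTD, and in 40.6% and 49.5% in p16-Alb-LRTD. The gap was wide for Spon2 as well (16.5% and 37.7%, then 11.3% and 21.3%) and small for Podn (12.6% and 14.1%, then 14.1% and 16.8%).

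The ratios of genes named for the same zone were above 1 in both libraries. The 3 central pairs had ratios of 1.64 to 1.79 in p16-LRTD and 1.40 to 1.59 in p16-Alb-LRTD, highest for Spon2 with Podn. Ngfr with Il34 had 1.215 and 1.197, and the portal pairs with Igfbp3 lay between 1.03 and 1.05, where in p16-Alb-LRTD the intervals held 1 (0.990 to 1.07 with Ngfr and 0.998 to 1.06 with Il34). Pth1r went with the portal genes, at 1.14 and 1.13 with Ngfr and 1.09 in each library with Il34, and was below 1 with Adamtsl2 (0.883 and 0.931), Spon2 (0.829 and 0.879) and Podn (0.872 and 0.865). Reln, present in nearly every cell, had ratios of 0.991 to 1.01 with all the other members, as a gene at such a share must.

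**Figure D2:**
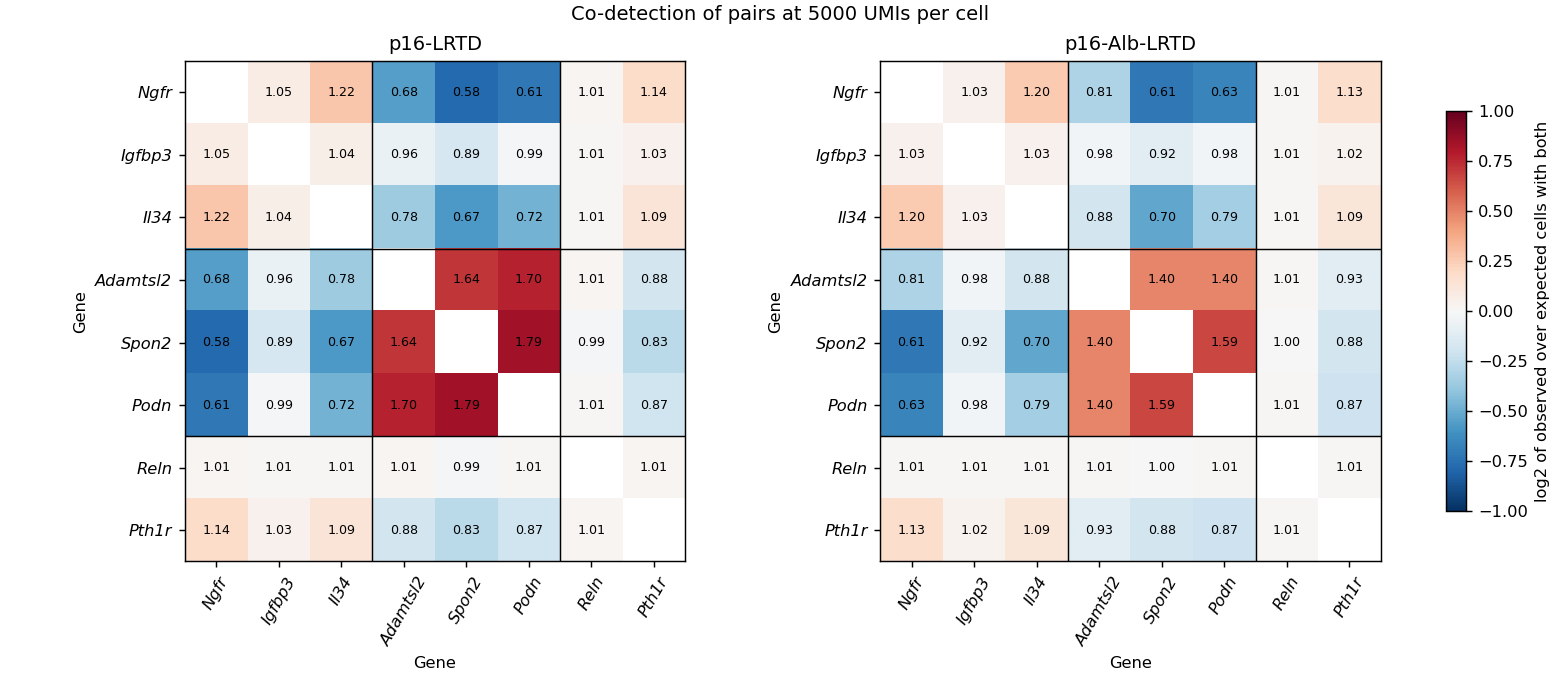
Observed over expected number of cells with both genes of a pair at 5000 UMIs per cell, printed in each square and coloured on a log2 scale, for p16-LRTD (left) and p16-Alb-LRTD (right). Lines separate portal, central and other genes. The 9 portal-central squares lie below 1 in each library and the central-central squares between 1.40 and 1.79.

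Depth and doublets can move such ratios, and no doublet caller was run here. Cells were split into 4 depth bins of equal cell number by their UMI total before thinning. The ratio for Ngfr with Adamtsl2 was 0.668, 0.741, 0.700 and 0.768 from the shallowest to the deepest bin in p16-LRTD. It was 0.722, 0.782, 0.826 and 0.921 in p16-Alb-LRTD, where the interval of the deepest bin held 1 (0.809 to 1.04). In the deepest bin of p16-Alb-LRTD 34.03% of cells with Ngfr and 38.9% of those without it had Adamtsl2. The ratio was nearest to 1 in the deepest cells of each library. Ngfr with Spon2 moved more in each library, and Adamtsl2 with Spon2 moved more in p16-LRTD only. Ngfr with Spon2 went from 0.463 in the shallowest to 0.788 in the deepest bin of p16-LRTD and from 0.544 to 0.791 in p16-Alb-LRTD, the last with an interval of 0.602 to 1.02. Adamtsl2 with Spon2 was at 2.44, 1.85, 1.43 and 1.26 in p16-LRTD and at 1.45, 1.31, 1.27 and 1.51 in p16-Alb-LRTD. In p16-LRTD the deeper bins had fewer cells with Ngfr (1376, 1192, 909 and 755) and more with Adamtsl2 (565, 799, 985 and 1111) although all were thinned to the same total. In p16-Alb-LRTD the counts were 630, 675, 696 and 717 for Ngfr and 801, 738, 758 and 660 for Adamtsl2.

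The genes of each zone were then counted in every cell. Of the p16-LRTD HSCs with 0, 1, 2 or 3 portal genes (440, 2242, 3067 and 2837 cells), 24.5%, 28.3%, 48.6% and 73.6% had no central gene. In p16-Alb-LRTD (316, 2031, 2975 and 1823 cells) the shares were 37.3%, 35.0%, 48.8% and 64.7%. Cells with all 3 portal genes and no central gene made up 24.3% of HSCs in p16-LRTD (2089 cells) and 16.5% in p16-Alb-LRTD (1180 cells). All 6 genes at once were found in 30 cells and 7 cells (0.349% and 0.0980%).

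**Figure D3:**
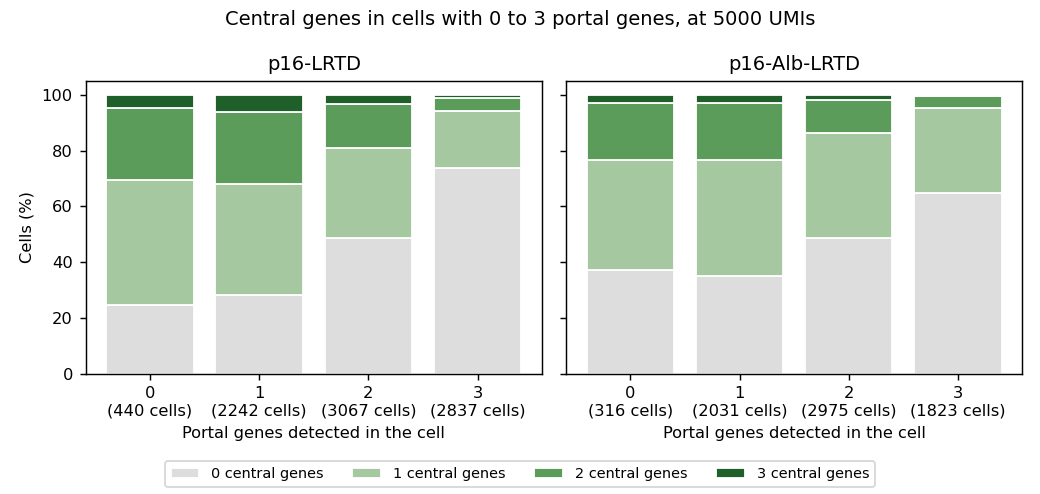
Share of stellate cells (%) with 0 to 3 central genes (shades) among cells with 0, 1, 2 or 3 portal genes (bars, cell numbers below), at 5000 UMIs per cell. The share with no central gene is highest where all 3 portal genes were found, at 73.6% in p16-LRTD and 64.7% in p16-Alb-LRTD.

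To see what else differed between these cells, HSCs were first grouped by any portal and any central gene. Cells with portal genes only made up 49.1% and 46.8% of HSCs, cells with both 45.8% and 48.8%, cells with central genes only 3.87% and 2.77%, and cells with neither 1.26% and 1.65%. Col1a1, a chain of type I collagen, was 6.26 and 5.04 times higher in central-only than in portal-only cells (4160 against 664.8 CPM and 1519 against 301.4). The few central-only cells were also rich in barcodes marked by fibroblast or mesothelial genes, at 34.6% and 31.8% against 2.04% and 2.21% of portal-only cells. Cells with the division genes Mki67 or Top2a made up 18.4% and 2.02% of central-only against 5.81% and 4.01% of portal-only cells.

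After these values had been seen, HSCs were grouped again by Ngfr and Adamtsl2 alone, which gave classes of more even size. Cells with Ngfr only made up 35.7% of HSCs in p16-LRTD and 25.3% in p16-Alb-LRTD, cells with Adamtsl2 only 26.8% and 28.6%, cells with both 13.5% and 12.7%, and cells with neither 24.0% and 33.3%. These are ranges of detection and not cell types. Ngfr-only and Adamtsl2-only cells differed in depth in p16-LRTD (median 15461 and 20068 UMIs) and little in p16-Alb-LRTD (18722 and 17966). They also differed in the share of barcodes marked by fibroblast or mesothelial genes, at 1.27% and 15.2% in p16-LRTD and 1.88% and 7.67% in p16-Alb-LRTD. Cells with the division genes Mki67 or Top2a made up 4.33% and 8.71% of them in p16-LRTD and 3.32% and 3.08% in p16-Alb-LRTD.

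Collagen was higher in the Adamtsl2-only cells of each library. Col1a1 stood at 3929 CPM in Adamtsl2-only and 491.3 in Ngfr-only cells of p16-LRTD, a ratio of 7.997. In p16-Alb-LRTD it stood at 732.7 and 247.4 CPM, a ratio of 2.96. Without the fibroblast or mesothelial barcodes the ratio was 7.63 in p16-LRTD, and over 10 cell selections it ran from 7.51 to 9.98 and from 2.76 to 3.15. Col3a1, the type III collagen chain, had ratios of 4.56 and 1.78, and Acta2, the smooth muscle actin of activated HSCs, of 4.85 (99.5 against 20.5 CPM) and 2.42 (21.6 against 8.95). Timp1, an inhibitor of matrix metalloproteinases, was 2.83-fold higher in Adamtsl2-only cells of p16-LRTD (85.2 against 30.1 CPM) and at a ratio of 1.10 (0.993 to 1.21) in p16-Alb-LRTD. Between central-only and portal-only cells of the first grouping the ratios were 3.94 and 4.46 for Timp1, 4.06 and 12.3 for Acta2 and 3.85 and 2.34 for Col3a1. The smaller gap of Timp1 and Acta2 in p16-Alb-LRTD thus held only in the grouping by Ngfr and Adamtsl2. The central-only class had just 332 and 198 cells, 34.6% and 31.8% of them marked by fibroblast or mesothelial genes. Its ratios without those barcodes were not computed.

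Other genes differed less evenly between the classes. Pth1r was lower in Adamtsl2-only cells, at 248.3 against 659.1 CPM (ratio 0.377) in p16-LRTD and 230.2 against 460.3 (0.5001) in p16-Alb-LRTD. Reln was nearly level, with ratios of 1.08 and 1.18, against 0.836 and 0.891 between central-only and portal-only cells. Itgbl1, a secreted integrin-like protein listed as a further zonation gene, was 7.78 and 8.29 times higher in Adamtsl2-only cells. Its levels were low (14.9 against 1.91 CPM and 10.3 against 1.24). Rspo3, from the same list, had ratios of 1.19 and 1.21, against 0.940 in each library between central-only and portal-only cells. Tagln, also from that list, had 1.34 and 0.823, against 1.06 and 0.558. Lrat, which esterifies vitamin A for storage, had a ratio of 0.873 in p16-LRTD and 1.16 in p16-Alb-LRTD, and the chemokine Cxcl12 of 0.875 and 1.17. In the grouping by any portal and any central gene both were lower in central-only cells of each library (Lrat 0.634 and 0.891, Cxcl12 0.602 and 0.908), so their order depended on the grouping. The limits of the small central-only class hold here too. Between the libraries, Col1a1 was lower in p16-Alb-LRTD in every class, at 0.504 of the p16-LRTD level in Ngfr-only cells, 0.289 in cells with both, 0.331 in cells with neither and 0.187 in Adamtsl2-only cells. In the first grouping it was at 0.453 in portal-only, 0.365 in central-only, 0.212 in cells with both and 0.769 in cells with neither, so the order of the classes depended on the grouping.

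**Figure D4:**
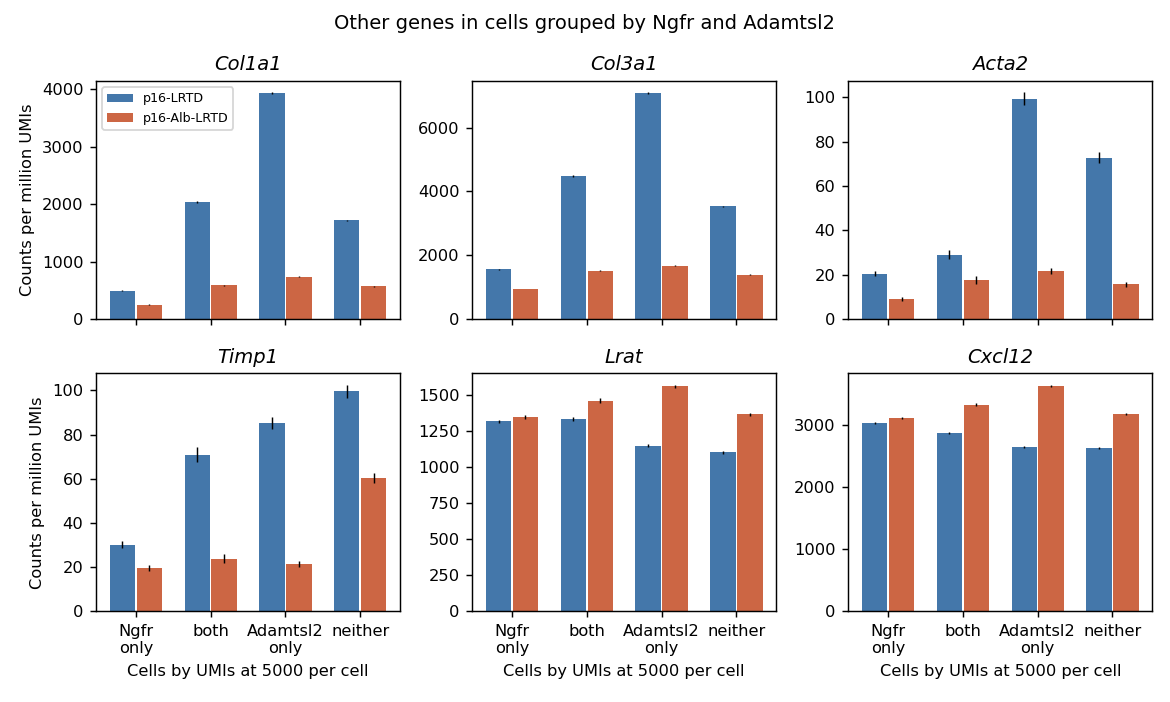
Levels in CPM (linear axis from 0) of 6 genes that did not define the classes, in stellate cells with Ngfr only, both, Adamtsl2 only or neither, for each library. Lines on the bars are exact 95% Poisson intervals. Col1a1 is higher in Adamtsl2-only than in Ngfr-only cells in p16-LRTD (3929 against 491.3) and in p16-Alb-LRTD (732.7 against 247.4).

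The members were next followed over the collagen level of the cells, measured as Col1a1, Col1a2 and Col3a1 per 10000 UMIs and split into 4 bins of equal cell number within each library. Their median collagen was 10.8, 20.2, 52.4 and 173 per 10000 UMIs in p16-LRTD and 9.79, 15.8, 24.1 and 47.9 in p16-Alb-LRTD, so a bin does not stand for the same collagen level in both. The 3 central genes were higher in the top bin and the 3 portal genes and Pth1r lower. From the lowest to the highest bin, Ngfr went from 264 to 57.8 CPM in p16-LRTD and from 162 to 71.6 in p16-Alb-LRTD, ratios of 0.219 and 0.443. Il34 had ratios of 0.294 and 0.436, Pth1r of 0.344 and 0.583 and Igfbp3 of 0.400 and 0.780. Reln changed least, at 0.909 and 0.878.

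Adamtsl2 went from 26.1 to 343 CPM in p16-LRTD, a ratio of 13.2, and from 63.6 to 231 in p16-Alb-LRTD, a ratio of 3.64. For Spon2 the ratios were 18.0 (6.59 to 119 CPM) and 9.46 (7.44 to 70.4), and for Podn 10.0 (5.68 to 56.8) and 3.64 (13.8 to 50.3). The central genes thus spanned more than the portal genes in both libraries, and the span of all 3 was wider in p16-LRTD. Barcodes marked by fibroblast or mesothelial genes also rose over the bins, from 0.0929% to 25.2% and from 0.335% to 18.9%. With those barcodes left out and the bins set again, the ratios were 13.4 and 3.96 for Adamtsl2, 17.6 and 8.11 for Spon2, 10.2 and 3.85 for Podn and 0.272 and 0.510 for Ngfr.

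**Figure D5:**
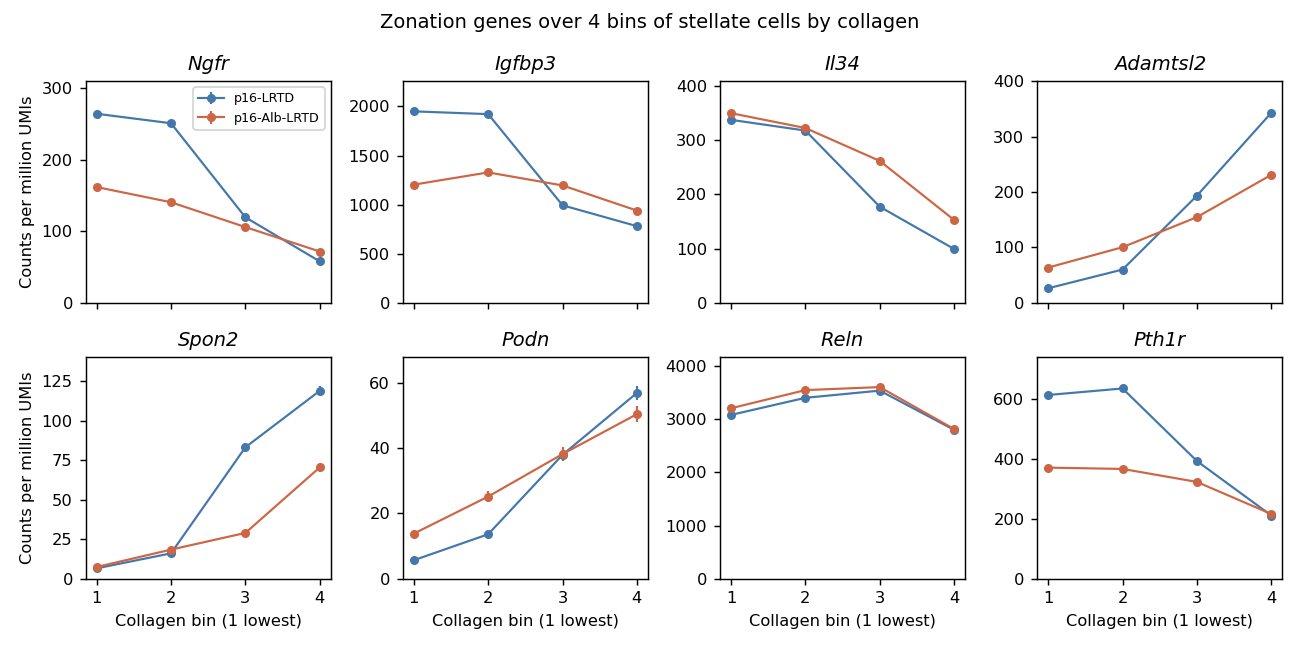
Level of each gene (CPM, linear axis from 0) in 4 bins of stellate cells from low to high collagen, bins of equal cell number set within each library, with exact 95% Poisson intervals. Adamtsl2, Spon2 and Podn are higher and Ngfr, Il34 and Pth1r lower in the top bin than in the lowest in both libraries, with Adamtsl2 going from 26.1 to 343 in p16-LRTD and from 63.6 to 231 in p16-Alb-LRTD.

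Because the libraries differed in collagen itself (Col1a1 2047 and 534.3 CPM over all HSCs), the cells were also put into 4 collagen ranges common to both, added after the values were seen, with limits at 13.8, 23.0 and 53.2 per 10000 UMIs. The top range held 37.1% of HSCs in p16-LRTD against 10.4% in p16-Alb-LRTD. Ngfr was lower in p16-Alb-LRTD in every range, with ratios of 0.616, 0.483, 0.518 and 0.912 from the lowest range up. Pth1r was lower in every range too, at 0.614, 0.540, 0.565 and 0.679. Adamtsl2 went from higher to lower, with ratios of 2.73, 2.44, 1.48 and 0.822, with 25.0 CPM in p16-LRTD against 68.4 in p16-Alb-LRTD in the lowest range. Podn had 2.77, 2.83, 1.62 and 0.970, and Spon2 1.37, 1.998, 0.958 and 0.724.

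At a like collagen level below the top range, Adamtsl2 and Podn were therefore higher in p16-Alb-LRTD, although over all HSCs Adamtsl2 was lower and Podn level. Igfbp3 was lower in the 3 lower ranges (0.630, 0.635 and 0.823) and level in the top one (1.01). Il34 stayed between 0.893 and 1.06, and Reln between 0.756 and 1.08. In the top range the median collagen still differed, at 126 and 77.4 per 10000 UMIs, and in the lowest range the cells of p16-LRTD were shallower (median 14996.5 and 19175.5 UMIs).

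The genes most like each member were found by the Pearson correlation of log-scaled counts across the 8606 and 7154 HSCs, over 10438 genes. Cells of a library share its preparation, depth and free RNA, so these values are a description. Sod3, the secreted superoxide dismutase, was the first partner of Ngfr (0.65 in p16-LRTD and 0.53 in p16-Alb-LRTD), of Il34 (0.56 and 0.50) and of Pth1r (0.76 and 0.65), and the second of Igfbp3 (0.63 and 0.46) after Col14a1, a collagen that associates with fibrils (0.61 and 0.56). Lsamp, Clca3a1 and the collectin Colec11 were among the first 5 genes of both Ngfr and Il34, and Lsamp was the first of Il34 when the cells were thinned. Pth1r stood among those of Ngfr (0.63 and 0.47).

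The central genes had other partners. Col6a3, a chain of type VI collagen, came first for Adamtsl2 (0.72 and 0.48), followed by Col1a1 (0.69 and 0.39) and Col3a1, and the serine protease Htra3 first for Spon2 (0.54 and 0.38), which gave way to Col1a1 when the cells were thinned. For Podn the first gene was Adamtsl2 (0.46 and 0.32), which was the fifth when the cells were thinned, with Col3a1 first. Reln went with Ank3, an ankyrin (0.71 and 0.74), and the transcription factor Sox5 (0.64 and 0.58), and shared none of its first 5 genes with another member. Ngfr and Adamtsl2 correlated at -0.46 and -0.25, with Adamtsl2 at place 10422 of 10437 genes ranked against Ngfr. Of the 40 partners, 29 remained among the first 5 when the cells were thinned, 4 or 5 of 5 for each portal gene and Pth1r, 3 for Adamtsl2, Spon2 and Reln and 2 for Podn.

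Genes that work with the members were described from lists by pathway. Of 43 genes listed, 27 had a mean of at least 5 CPM in HSCs. Of these, 9 were at least 20% lower in p16-Alb-LRTD and 1 at least 25% higher, beside 11.5% and 7.74% of all genes. The lists were also chosen with earlier results of these data known, so no excess is read from these counts. Around Ngfr, 5 ligands and co-receptors were tested and 0 passed, with Ntf3, neurotrophin 3, at 99.01 and 121 CPM. At a minimum of 1 CPM, 8 genes of that list were tested and 3 were lower, beside 15.2% of all genes at that minimum. They were the neurotrophins Bdnf (2.51 and 1.51 CPM) and Ntf5 (1.44 and 0.587) and the receptor Sorcs2 (4.53 and 2.59). Around Il34, 1 of 3 was lower, the cell surface proteoglycan Sdc1 (14.5 and 4.88 CPM), while Csf1, the other ligand of the same receptor, stood at 133 and 135. For the parathyroid hormone group 1 gene was tested, and Ramp2, a receptor activity modifying protein, was lower (175 and 122.7). Pth itself had 0 UMIs, and Pthlh, the local ligand, had 37 and 25.

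The insulin-like growth factor list had 3 of 6 genes lower, namely Igfbp5 (19.9 and 6.95 CPM), Igfbp6 (19.2 and 9.57) and the growth factor Igf1 (35.6 and 19.1). Among relatives of the matrix members, 2 of 7 were lower and 1 higher. Fbn1, which encodes the fibrillin that ADAMTSL2 binds, was at 237 and 175 CPM and Adamtsl3 at 11.6 and 8.61. Spon1, the relative of Spon2 also called F-spondin, was at 104 CPM in p16-LRTD against 230.2 in p16-Alb-LRTD, 1.14 on the log2 scale and so the opposite of Spon2. Of the reelin list only the adaptor Dab2 was tested (45.0 and 56.1 CPM, under 25% higher).

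Among 4 further zonation genes, Itgbl1 (7.53 and 5.51 CPM) and Tagln, an actin-binding protein of contractile cells (600.9 and 405.9), were lower. Rspo3, a Wnt signal enhancer made near the central vein, stood at 567 and 687 CPM and Cxcl12 at 2792 and 3306, both under 25% higher.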

How the data were processed

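HSCs were isolated by perfusion, digestion and a density gradient, and libraries were made with the 10x 3′ v3.1 kit. The values deposited by the authors are unnormalised UMI counts for every gene in every barcode, which per the submitters' notes came from Cell Ranger 7.0.1 with mm10. The annotation release and the intron and strand settings are not given in the sources used here. Gene positions come from GENCODE vM21 (GRCm38), which held the identifiers of 31011 of the 31054 features.

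From there on, values were computed here in Python 3.11.15 with numpy 2.4.6, scipy 1.17.1, pandas 2.3.3 and matplotlib 3.10.9. Endothelial and macrophage barcodes passed the same mitochondrial and gene limits, fell below the HSC limit and had at least 15 per 10000 UMIs of their own marker list. In each library the counts of a class of cells were added up and divided by their total UMIs, as CPM with exact 95% Poisson intervals. Ratios have exact conditional intervals and shares of cells Clopper-Pearson intervals. With 1 library per genotype no test was run, and a gene was called when it was at least 20% lower or 25% higher in p16-Alb-LRTD. Expected co-detection is the product of the detection shares of both genes, after thinning without replacement to 5000 UMIs. Cells were not clustered, and no doublet caller was run. Only TMM factors came from edgeR 4.0.16 in R 4.3.3. On simulated counts of 10476 genes for the comparison of the libraries, 100% of 2-fold changes and 0% of unchanged genes were called, and 95.4% of intervals held the true ratio. The simulation held counting error only and no variation between libraries, so it checks the arithmetic and not the calls between genotypes.

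Named genes are the members, the partner lists, the marker lists and, per member, the 5 genes with the highest mean correlation among genes detected in at least 5% of HSCs of each library, leaving out mitochondrial, ribosomal and sex-linked genes. The members and lists were chosen with earlier results of these data known. The stress list, Timp1, the classes by Ngfr and Adamtsl2 and the common collagen ranges were added after values had been seen. Promoters are RefSeq sequences. Alternatives covered the cell limits, doubted barcodes, scaling, summing, thinning and the filter on low counts. One gene of the partner lists is not reported here.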

Additional observations from a re-analysis of the deposited data

How the results depend on the processing

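No paired analysis was possible because there was 1 library per genotype and no result comes from a test, and for the same reason no replicate could be left out. Over 14 alternatives 3 or 4 members were at least 20% lower, and no member that passed the line changed direction. Adamtsl2 fell short of the line in 7 of 14, Igfbp3 passed it (log2 ratio -0.33) when the mean of per-cell CPM was used, and 1 member was higher, Il34 at 0.36, under TMM and under median of ratios scaling, which moved all log2 ratios by 0.04. The log2 ratio of Podn, near 0, changed sign in 3 of 14. The share of all genes called at a minimum of 1 CPM was 15.2% lower and 9.27% higher, and 12 partner genes were then lower and 1 higher. In what follows values are given for p16-LRTD first. The share of cells with a portal UMI was 96.1% and 96.4% when Dcn was left out of the HSC limit, 96.5% and 97.0% without fibroblast or mesothelial barcodes, 95.7% in p16-LRTD without dividing cells and 95.4% there in cells of 10000 to 30000 UMIs. It was 90.7% and 91.7% at 3000 UMIs, 98.1% and 98.3% at 10000 UMIs and 99.4% and 99.2% without thinning. The share with a central UMI was 50.8% and 52.8% without mixed barcodes, 47.0% in p16-LRTD without fibroblast or mesothelial barcodes, 38.4% and 38.5% at 3000 UMIs, 64.0% and 67.3% at 10000 UMIs and 69.7% and 78.5% without thinning. Asking for 2 UMIs of a group gave a portal and central co-detection ratio of 0.899 and 0.947. Ngfr with Adamtsl2 was at 0.615 at 3000 UMIs and 0.802 at 10000 UMIs in p16-LRTD, and at 0.906 and 0.929 without thinning. It was below 1 under all 13 alternatives, and 8 or 9 of the 9 portal-central pairs were below 1 in p16-LRTD and 7 to 9 in p16-Alb-LRTD. Leaving out mixed, fibroblast, mesothelial and very deep barcodes together, chosen after seeing the data as were the alternatives of the single pairs and of the classes, gave portal shares of 96.9% and 97.1% and a central share of 47.5% in p16-LRTD. Detection shares and co-detection ratios move with the number of UMIs kept, since deeper counting fills in more cells, and they hold for the depth stated.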

Other observations

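The 3 genes that ran most opposite to each member were looked at after other values had been seen. The most negative correlations across HSCs are given for p16-LRTD (8606 cells) and p16-Alb-LRTD (7154 cells) in that order, as a description of cells that share a library. For Adamtsl2 they were Lsamp (-0.63 and -0.42), Sod3 (-0.52 and -0.38) and Clca3a1 (-0.52 and -0.34), which are among the genes most like Ngfr and Il34. For Podn they were these same 3 genes, and for Spon2 Clca3a1, Sod3 and Vipr1, a receptor for vasoactive intestinal peptide. For Ngfr they were Adamts5, a protease that cleaves proteoglycans (-0.48 and -0.47), the collagen-binding proteoglycan Lum (-0.51 and -0.40) and the chloride channel Ano1 (-0.43 and -0.42). For Igfbp3 they were Emp1 (-0.47 and -0.31), Loxl1, an enzyme that cross-links elastin (-0.45 and -0.30), and Col1a1 (-0.48 and -0.26). Il34 and Pth1r ran most opposite to Col1a1 (-0.50 and -0.36, and -0.59 and -0.35). For Reln they were complement C3 (-0.54 and -0.50), Ildr2 (-0.47 and -0.46) and the acute phase gene Saa3 (-0.47 and -0.44).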
